A study of Mus musculus with 6 samples.

Results

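Immunoglobulin kappa variable (Igkv) segments are the gene pieces that supply most of the antigen-binding domain of a kappa antibody light chain, and their use was read here from RNA sequencing of bulk mouse colon tumours. Members were selected on their counts: rows of the deposited table whose identifier maps to a symbol starting with Igkv and that held at least 10 counts summed over the 6 libraries. There were 99 of them, among 160 Igkv symbols and 53700 gene rows. Of the other symbols, 44 had 0 counts and 17 had 1 to 9 counts (53 counts in all). At the edge of the rule, Igkv2-137 was just inside with 11 counts and Igkv8-26 just outside with 8. The annotation lists 95 members as variable genes and 4 as pseudogenes, which held 74 of the 382227 member counts.

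The study compared 2 groups of 3 colon tumours. The APC-WT mice, with endogenous Tcf7l2 expression, were cachectic (wasting with their tumours) and were taken after 10 days on doxycycline. The APC-KI mice were taken after 6 weeks on the drug, which in this genotype represses Tcf7l2 systemically, and had recovered from the wasting. All mice were given 100 mg/kg doxycycline in food pellets, so genotype, time on the drug and cachexia cannot be told apart in any difference below, and the labels used here give no age. The tumours were pinched off the muscle layer beneath. Library totals ran from 51777342 to 63921108 counts, and Tcf7l2 itself was at 44.1, 43.8 and 35.6 CPM, the counts scaled to library size, in APC-WT replicates 1 to 3 and at 4.48, 6.90 and 5.34 CPM in the APC-KI libraries. Counts of Y-linked genes were present in APC-WT replicates 1 and 2 (19164 and 16055) and 0 in the other 4 libraries. Their presence is thus partly confounded with group. The labels number the libraries but do not say that each came from a separate mouse, so p-values measure the spread between these libraries.

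A kappa light chain gene is built in a developing B cell when one Igkv segment is cut and joined to one of the Igkj joining segments. The joined exon is transcribed and spliced to the single constant gene, Igkc, and plasma cells, the antibody-secreting end stage of B cells, make this mRNA in very large amounts. In the gut most plasma cells make IgA. A B cell that makes a kappa chain generally uses 1 kappa segment. A bulk tissue thus holds a mixture in which expanded families of cells can raise the share of single segments. In such bulk samples fewer cells of a type and less RNA per cell cannot be told apart.

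The leading segments Igkv1-117 and Igkv1-110 are near copies of each other. Igkv1-117 (GRCm38 chr6:68121046-68121827, plus strand) and Igkv1-110 (chr6:68270485-68271267, plus strand), in the annotation used for names, each have a short leader exon and a longer variable exon, and both lie on the strand of Igkc (chr6:70726435-70726966). Their coding parts, taken from the GENCODE M21 transcripts (reference sequence, not reads), are 359 bases each and 97.2% identical, with 10 substituted bases and 0 gaps. Their last 300 bases are shown because these 2 segments lead the Igkv counts, and because reads that miss the differing bases could be assigned to either. The 59 bases before hold 0 differences. Capitals mark the bases that differ.
Igkv1-117: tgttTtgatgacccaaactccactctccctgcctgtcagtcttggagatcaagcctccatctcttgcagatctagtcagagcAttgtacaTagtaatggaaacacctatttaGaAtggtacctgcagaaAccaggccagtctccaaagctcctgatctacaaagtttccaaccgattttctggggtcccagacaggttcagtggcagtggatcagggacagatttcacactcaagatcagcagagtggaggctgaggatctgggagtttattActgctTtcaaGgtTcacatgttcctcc
Igkv1-110: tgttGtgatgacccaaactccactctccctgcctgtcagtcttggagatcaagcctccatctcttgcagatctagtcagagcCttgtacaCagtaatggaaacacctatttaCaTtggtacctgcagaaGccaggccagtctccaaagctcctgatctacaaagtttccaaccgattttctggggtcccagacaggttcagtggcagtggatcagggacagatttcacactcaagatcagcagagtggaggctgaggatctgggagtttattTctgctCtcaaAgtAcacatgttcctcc

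The ends of the segments show how the leaders differ where CDR3, the most variable antigen-contact loop, begins. For the 7 segments that were among the first 3 in any library, the last 60 bases of the coding part follow, with capitals from the codon of the conserved cysteine onward. The capitals after that codon are the start of CDR3, as far as the segment itself encodes it.
Igkv1-117: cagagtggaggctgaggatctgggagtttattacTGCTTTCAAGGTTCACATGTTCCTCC
Igkv1-110: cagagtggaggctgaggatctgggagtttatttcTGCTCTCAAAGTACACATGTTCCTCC
Igkv1-135: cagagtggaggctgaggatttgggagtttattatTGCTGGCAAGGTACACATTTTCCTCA
Igkv10-96: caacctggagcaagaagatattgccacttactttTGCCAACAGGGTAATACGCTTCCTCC
Igkv5-43: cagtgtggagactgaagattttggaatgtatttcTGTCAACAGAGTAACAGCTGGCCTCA
Igkv9-124: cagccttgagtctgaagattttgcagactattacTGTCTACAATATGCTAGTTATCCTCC
Igkv6-23: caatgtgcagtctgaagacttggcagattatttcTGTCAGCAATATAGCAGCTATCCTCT

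Many members have close copies, which limits how far counts can be assigned to 1 segment. For 50 of the 99 members another Igkv segment had a coding part at least 95% identical over the aligned bases, and the median identity to the nearest segment was 95.2%. Igkv10-96 was 95.4% identical to Igkv10-94, Igkv1-135 was 96.7% identical to Igkv1-133, and Igkv5-43 was 98.6% identical to Igkv5-45. Igkv6-15 and Igkv6-23 were 94.5% identical. Values of these segments are uncertain to the extent that the authors' counting split or dropped shared reads, which the sources used here do not describe.

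Igkv counts were about 10-fold higher in the APC-KI tumours. The 99 segments together were at 152, 298 and 162 CPM in the APC-WT libraries and at 2336, 2821 and 1376 CPM in the APC-KI libraries (CPM scaled by TMM factors). The groups did not overlap, and every APC-KI library lay above every APC-WT library. The means were 204 ± 81.9 and 2178 ± 735 CPM (SD, n = 3 each), a ratio of 10.7 with an exact two-sided permutation p = 0.1, the smallest that 3 against 3 allows (0.15 after adjustment over 18 level measures). As a share of all counts, Igkv took 0.0159%, 0.0312% and 0.0167% in APC-WT and 0.219%, 0.269% and 0.136% in APC-KI. The number of Igkv counts behind each usage profile was therefore 8646 to 16974 in APC-WT and 77339 to 147482 in APC-KI.

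**Figure D1:**
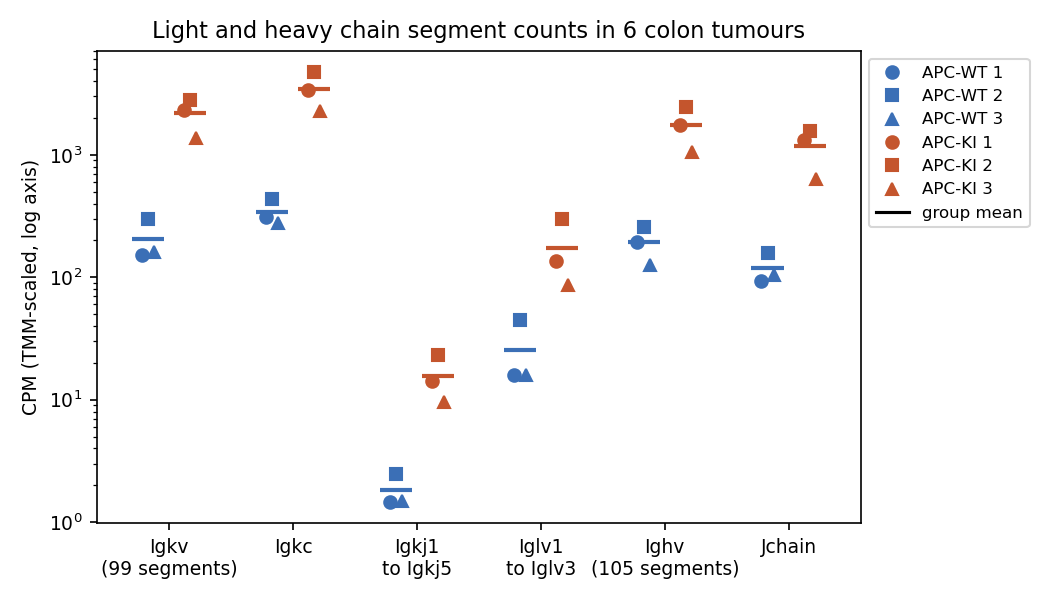
Summed CPM (log axis) of the 99 Igkv segments, Igkc, the joining segments, the lambda variable segments, 105 heavy chain variable (Ighv) segments and Jchain in each library; points are libraries and bars are group means. In all 6 sets the 3 APC-KI libraries lie above the 3 APC-WT libraries, and APC-KI replicate 3 is the lowest of the APC-KI libraries.

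The constant and joining parts of the locus followed the same order. Igkc was at 311, 435 and 279 CPM in APC-WT against 3385, 4722 and 2280 CPM in APC-KI, a log2 change of 3.34 ± 0.32 (SE, edgeR adjusted p = 0.00429). Igkv counts per Igkc count were 0.489, 0.685 and 0.580 in APC-WT and 0.690, 0.597 and 0.603 in APC-KI. These ratios overlapped (exact permutation p = 0.4), and without APC-WT replicate 1 their difference changed sign. The 5 joining segments Igkj1 to Igkj5, which are short and gave few counts, summed to 1.47, 2.48 and 1.5 CPM against 14.2, 23.3 and 9.55 CPM. All 6 of Igkc and Igkj1 to Igkj5 were called higher, with log2 changes from 2.82 (Igkj4) to 3.42 (Igkj1); Igkj4 missed the threshold without APC-KI replicate 1 (adjusted p = 0.055). In the 4 libraries without Y-linked counts, where APC-WT is 1 library, Igkc had a log2 change of 3.63 and an adjusted p of 0.0676.

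The other antibody chains showed how kappa compared with them. Lambda, the other light chain type, was rarer: Igkc made up 93.6%, 90.1% and 93.9% of light chain constant counts in APC-WT and 96.9%, 94.6% and 97.4% in APC-KI, without overlap (exact permutation p = 0.1). For variable segments the kappa share was 90.5%, 86.9% and 91.1% against 94.5%, 90.5% and 94.1%, and these ranges overlapped. Iglv1 to Iglv3 summed to 25.5 ± 16.8 CPM in APC-WT against 173 ± 110 CPM in APC-KI. Of 6 lambda chain genes tested 4 were higher (Iglc2, Iglc3, Iglv1 and Iglv3) and 0 lower, and 0 of these 4 calls held with each library left out in turn (highest adjusted p 0.147). Ighv segments, the heavy chain counterpart, summed to 193 ± 66.3 and 1761 ± 711 CPM, a ratio of 9.15 (exact permutation p = 0.1). Jchain, which encodes the joining chain of secreted IgA and IgM, was at 93.5, 158 and 105 CPM against 1319, 1558 and 640 CPM, so that Igkv counts per Jchain count stayed between 1.54 and 1.89 in APC-WT and between 1.77 and 2.15 in APC-KI.

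Single segments were then tested one by one within the fit over all 19127 genes. Of the 99 members 76 passed the filter on low counts, and 42 of them were higher in APC-KI and 0 lower at an edgeR adjusted p under 0.05. Over all genes tested 12.5% were called higher and 7.63% lower. At an unadjusted edgeR p under 0.05, 55 of the 76 were higher and 0 lower, against 21.2% and 16.7% of all genes. DESeq2 gave 90 members an adjusted p and called 59 higher and 0 lower, against 15.1% and 10.0% of all genes to which it gave one. Without overlap between the groups there were 53 higher members, where 23.0% of all genes were higher in this way, and 0 lower members (21.5% of all genes). The median log2 change of the tested members was 3.26 against −0.016 over all genes. These counts describe the members that passed and are no support for a shared change, since a segment with few counts in APC-WT could pass through APC-KI alone. Of the 76, 47 had at least 10 counts in every APC-WT library, and of those 32 were called higher, with a median log2 change of 3.00. Another 23 had that many counts in every APC-KI library but not in every APC-WT library, and 10 of them were called.

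The number of calls changed when single libraries were left out. Such a fit has fewer libraries in 1 group, which by itself can lower the number of calls. The share of all genes called in these fits is not given, and the part of group size was not tested. The number of calls was 17, 19 and 20 without APC-WT replicates 1, 2 and 3, and 22, 24 and 45 without APC-KI replicates 1, 2 and 3. It fell to 3 in the 4 libraries without Y-linked counts. Segments varied between libraries of a group far more than other genes did: the median biological coefficient of variation of the tested members was 0.707, against 0.200 for all genes tested, and 98.5% of genes lay below the members' median.

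**Figure D2:**
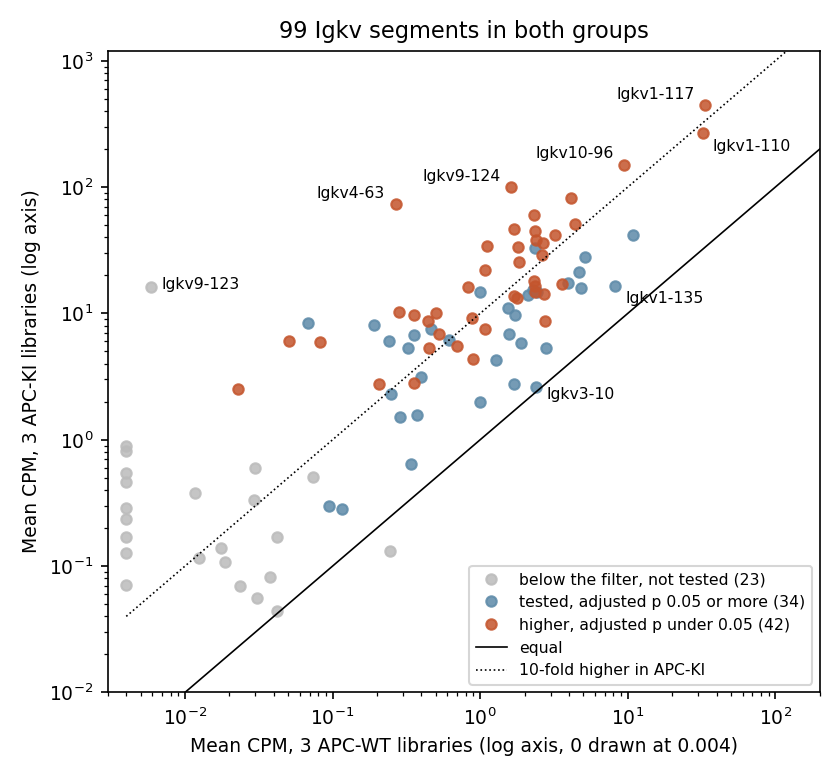
Mean CPM of each of the 99 segments in the 3 APC-WT libraries (x) and the 3 APC-KI libraries (y), both on log axes, colored by the result of the edgeR test. All 76 tested segments lie above the line of equality, on both sides of the dotted line of a 10-fold difference, and among them Igkv3-10 lies closest to equality.

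Igkv1-117 was the segment with the smallest adjusted p among the members. It was at 29.3, 41.5 and 29.3 CPM in APC-WT against 507, 496 and 336 CPM in APC-KI, a log2 change of 3.74 ± 0.23 (SE, adjusted p = 0.00119). Its libraries were close together within each group, and it kept the call under every alternative, with log2 changes from 3.64 to 3.93 when single libraries were left out. Igkv1-110 was at 7.86, 64 and 24.5 CPM in APC-WT against 323, 381 and 106 CPM in APC-KI. Its APC-WT libraries spread over a wide range, with replicate 2 highest and replicate 1 lowest. The log2 change was 3.07 ± 0.83 (adjusted p = 0.0465), and the call was lost without APC-WT replicate 1 (0.078) or 3 (0.154), without APC-KI replicate 1 (0.118) or 2 (0.118), and with no filter on low counts (0.173).

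Igkv10-96, from a small family of 3 members, was the next most abundant. It was at 9.18, 11.1 and 8.12 CPM in APC-WT against 93.7, 277 and 80.5 CPM in APC-KI, with APC-KI replicate 2 far above the others. Its log2 change was 3.99 ± 0.54 (adjusted p = 0.00785). The remaining segments with the smallest adjusted p were less abundant. Igkv8-30 was at 1.35, 3.53 and 2.19 CPM against 49.4, 32.9 and 51.5 CPM, a log2 change of 4.25 ± 0.39 (adjusted p = 0.00401). Igkv12-44 was at 1.92, 1.86 and 1.27 CPM against 16.5, 77 and 45.2 CPM (log2 change 4.77 ± 0.60). In both, the lowest APC-KI library lay well above the highest APC-WT library. Igkv4-90, Igkv1-88, Igkv3-5 and Igkv3-12 had log2 changes of 6.11, 4.32, 3.73 and 3.47. Igkv1-117, Igkv8-30, Igkv4-90, Igkv12-44, Igkv10-96, Igkv1-88 and Igkv3-12 are the 7 members that stayed past the threshold with each library left out in turn. Igkv3-5 missed it without APC-WT replicate 2 (adjusted p = 0.056).

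Some abundant segments reached their APC-KI mean through 1 library. Igkv9-124 was at 0.39, 0.81 and 3.65 CPM in APC-WT against 271, 15.4 and 14.7 CPM in APC-KI, so replicate 1 held most of the group's counts. Igkv4-63 showed the same library on top, at 0.015, 0.246 and 0.542 CPM against 185, 4.92 and 30.6 CPM, and had the largest fitted log2 change of the tested members (8.16 ± 1.70, adjusted p = 0.0234). Without APC-KI replicate 1 the log2 changes were 3.23 (adjusted p = 0.092) for Igkv9-124 and 6.08 (0.051) for Igkv4-63. Igkv9-124 also missed the threshold without any one of the APC-WT libraries (0.092 to 0.136) or APC-KI replicate 2 (0.060), and Igkv4-63 without any one of the APC-WT libraries (0.076 to 0.087). Igkv6-23 was highest in APC-KI replicate 3, at 4.66, 7.14 and 1.29 CPM against 18.3, 35.6 and 99.5 CPM (log2 change 3.55 ± 0.83, adjusted p = 0.0320). That call was lost without any one of the APC-WT libraries (0.071 to 0.094) or APC-KI replicate 2 (0.063).

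Igkv6-15 and Igkv4-91 were among the 10 leading segments of the APC-KI group. Igkv6-15 was at 0.57, 6.73 and 5.05 CPM in APC-WT against 127, 61.2 and 55.6 CPM in APC-KI, with APC-WT replicate 1 lowest (log2 change 4.31 ± 0.85, adjusted p = 0.0201). Its call was lost without APC-WT replicate 2 (0.054) or 3 (0.071) or APC-KI replicate 1 (0.063). Igkv4-91 was at 2.58, 0.81 and 3.55 CPM against 62, 103 and 14.3 CPM (log2 change 4.69 ± 0.87, adjusted p = 0.0173), and APC-KI replicate 3 was lowest of its group. That call was lost without any one of the APC-WT libraries (0.054 to 0.059) or APC-KI replicate 1 (0.054). Igkv4-59, among the 10 leaders of APC-WT, was at 4.35, 2.09 and 4.28 CPM against 10.9, 29.9 and 10.6 CPM. Its log2 change of 2.26 ± 0.51 passed (adjusted p = 0.0291), but not when any library other than APC-KI replicate 3 was left out (0.052 to 0.089).

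Other leading segments did not pass the test. Igkv8-27 was at 1.42, 9.34 and 4.66 CPM against 15.6, 47 and 21.3 CPM (log2 change 2.45 ± 0.72, adjusted p = 0.0586). Igkv10-94 was at 3.82, 8.51 and 1.8 CPM against 25.5, 28 and 10.1 CPM (log2 change 2.17 ± 0.63, adjusted p = 0.0561). In both the groups did not overlap, while for Igkv16-104 they did, at 0.93, 10.9 and 2.56 CPM against 16.5, 26.1 and 4.98 CPM (adjusted p = 0.235). Igkv1-135 was at 19.5, 3.52 and 1.63 CPM in APC-WT against 10.6, 14.9 and 23.8 CPM in APC-KI, and its groups overlapped through APC-WT replicate 1 (log2 change 1.00 ± 0.87, adjusted p = 0.437). Without that library its log2 change was 2.67 and the adjusted p 0.033. Igkv5-43 was at 3.15, 22.8 and 6.77 CPM against 36.9, 62.9 and 25.9 CPM (log2 change 1.94 ± 0.73, adjusted p = 0.105), and without APC-WT replicate 2 it passed with 3.08 (0.040). Igkv3-10 had the smallest log2 change of the tested members, 0.14.

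The 23 members below the filter had 107 counts together in APC-WT and 3568 in APC-KI. Most of the latter came from Igkv9-123, which had 0, 1 and 0 counts in APC-WT and reached 13.3, 35.2 and 0.12 CPM in APC-KI replicates 1 to 3. The other 22 had between 11 and 141 counts each over the 6 libraries. Of the 23, 9 had 0 counts in all APC-WT libraries, and 0 members lacked counts in all APC-KI libraries. Igkv4-92 was the 1 member of the 23 with a lower mean CPM in APC-KI, from 11, 28 and 4 counts in APC-WT and 3, 13 and 5 in APC-KI.

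Within each library, the share of Igkv counts that a segment takes does not depend on how many Igkv counts there are, other than through precision. Igkv1-117 led 5 of the 6 libraries and Igkv1-110 led APC-WT replicate 2. The shares of Igkv1-117 were 19.3%, 13.9% and 18.1% in APC-WT and 21.7%, 17.6% and 24.4% in APC-KI, and those of Igkv1-110 were 5.16%, 21.4% and 15.1% against 13.8%, 13.5% and 7.69%. Both overlapped between groups. Together they took 24.4%, 35.4% and 33.2% of Igkv counts in APC-WT and 35.6%, 31.1% and 32.1% in APC-KI (exact permutation p = 0.8). At the depth of the smallest profile the Wilson 95% interval of Igkv1-117 was 17.3% to 18.9% (APC-WT replicate 3), so counting error is small beside the differences between libraries; the intervals cover counting error only. Exon lengths of members ran from 338 to 501 bases (median 362), and when counts were divided by length all 6 libraries kept their leading segment and all 30 places in the top 5 kept their members.

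**Figure D3:**
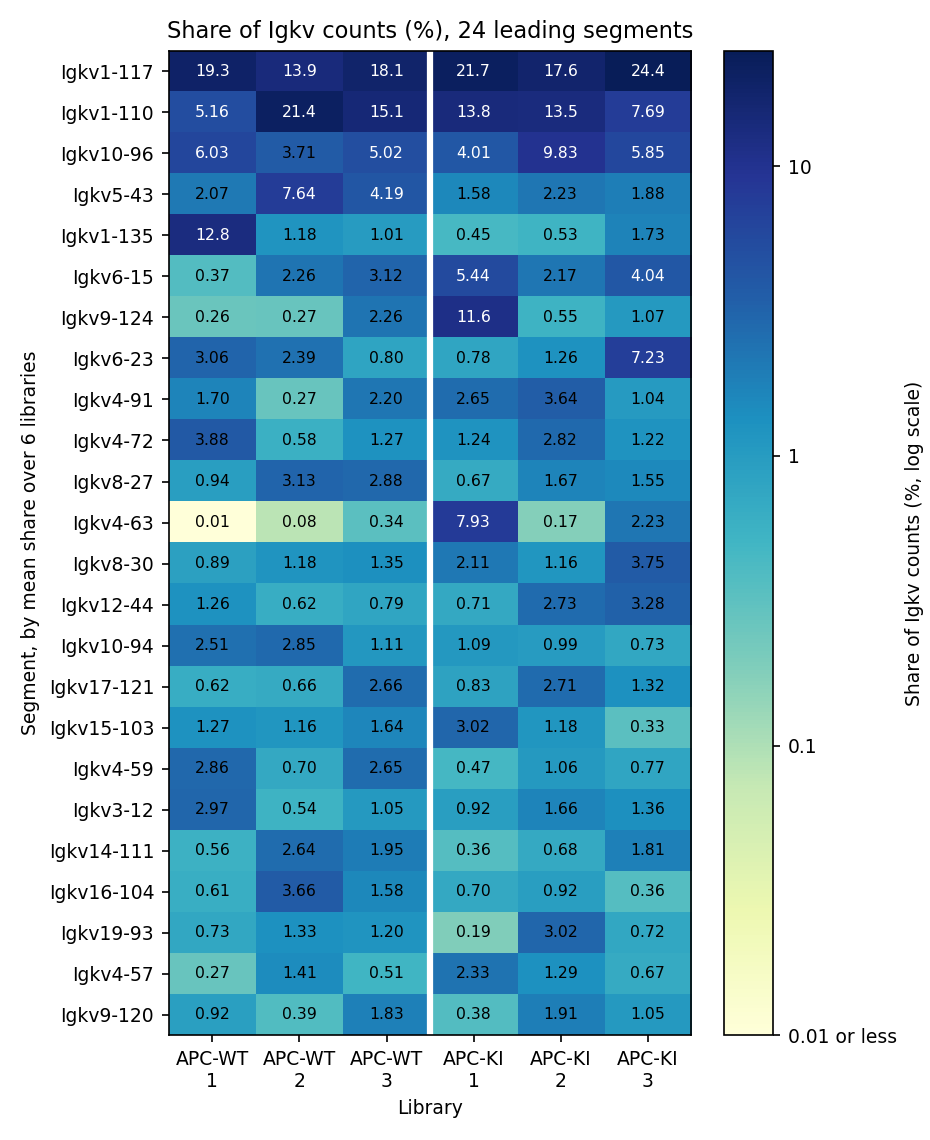
Share of Igkv counts (%, colored on a log scale and printed) for the 24 segments with the largest mean share over the 6 libraries. Igkv1-117 is among the first 2 in every library, while Igkv1-135, Igkv9-124, Igkv4-63 and Igkv6-23 stand out in 1 library each.

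Behind these leaders each tumour had its own order. In APC-WT replicate 1 Igkv1-135 ranked 2 with 12.8% of counts, against 0.454% to 1.73% in the other 5 libraries. In APC-WT replicate 2 Igkv5-43 ranked 3 with 7.64%, and in APC-WT replicate 3 Igkv10-96 ranked 3 with 5.02%. In APC-KI replicate 1 Igkv9-124 ranked 3 with 11.6% and Igkv4-63 ranked 4 with 7.93%. In APC-KI replicate 2 Igkv10-96 ranked 3 with 9.83%, and in APC-KI replicate 3 Igkv6-23 ranked 3 with 7.23%. Only 3 segments, Igkv1-117, Igkv1-110 and Igkv10-96, were in the top 10 of all 6 libraries. There were 28 segments in the top 10 of at least 1 library, and 12 of these in 1 library alone. The 10 segments with the largest mean share in each group had 4 in common.

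Some segments had a share in 1 tumour far above the median share of the others. Among the 78 members with at least 100 counts, 31 had a highest share more than 5 times the median share of the other 5 libraries, and for 18 it was more than 10 times, where a share under 3 counts was raised to 3 counts of its own library. Igkv4-63 in APC-KI replicate 1 was 45.5-fold above that median, and Igkv1-133 in APC-WT replicate 1, at 4.04%, was 43.7-fold above it. Neither was low in all other libraries. Igkv4-63 was also at 2.23% in APC-KI replicate 3, and Igkv1-133 at 1.10% and 0.539% in APC-KI replicates 1 and 2. For the next 3 segments that floor set the median, so their ratios are lower bounds. Igkv4-62 took 1.26% in APC-KI replicate 3, at least 42.6-fold higher than the median of the others. Igkv9-123 took 1.25% in APC-KI replicate 2, at least 42.2-fold higher, and was also at 0.569% in APC-KI replicate 1. Igkv12-89 took 0.863% in APC-KI replicate 2, at least 29.2-fold higher. Of the 31, the highest library was APC-WT replicate 1 for 6, replicate 2 for 3 and replicate 3 for 2, and APC-KI replicate 1 for 4, replicate 2 for 7 and replicate 3 for 9, so such segments occurred in all 6 tumours. Igkv1-133 and Igkv1-135, both highest in APC-WT replicate 1, are near copies, as given above, so their values may share reads.

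Dominance, the degree to which few segments hold the counts, did not separate the groups. The top 5 segments held 47.3%, 50.4% and 46.3% in APC-WT and 60.5%, 47.7% and 49.2% in APC-KI (exact permutation p = 0.4, 0.75 adjusted over 5 dominance measures). APC-KI replicate 1 stood above the others, and 4 segments were enough for 50% of its counts, against 5 to 7 in the other libraries. The effective number of segments, the exponential of the Shannon entropy, was 27.1, 26.8 and 28.2 in APC-WT and 20.6, 29.2 and 27.4 in APC-KI (exact permutation p = 0.9). Without APC-KI replicate 1 the difference between group means changed from −1.59 to 0.959. The inverse Simpson number, which weights the leaders more, was 14.1, 12.3 and 14.3 against 10.5, 14.5 and 12 (exact permutation p = 0.5). With 3 libraries per group these tests could not pass the threshold, so a p above it does not show that dominance is alike.

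**Figure D4:**
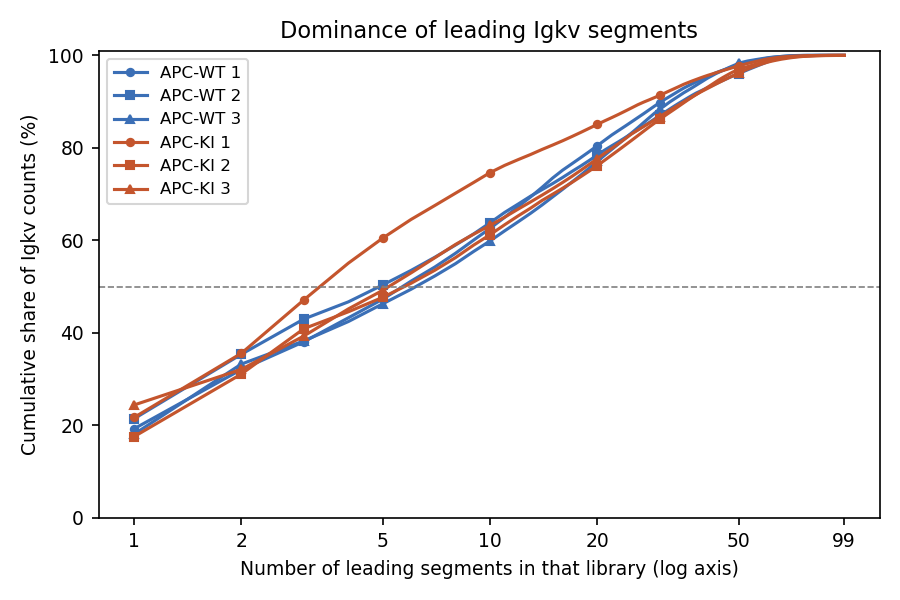
Cumulative share of Igkv counts (%) against the number of leading segments counted (log axis), with each library ranked by its own order. APC-KI replicate 1 rises fastest, to 60.5% at 5 segments, and the other 5 libraries lie between 46.3% and 50.4% there.

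How many segments were seen depended on depth. As deposited, 76, 85 and 78 members had at least 1 count in APC-WT and 95, 99 and 92 in APC-KI, without overlap. After each library was thinned to 8646 Igkv counts the means were 75.5, 82.0 and 78.0 in APC-WT and 80.7, 85.7 and 85.4 in APC-KI. The groups overlapped (exact permutation p = 0.2). Members were chosen on counts summed over all libraries, most of them APC-KI counts, and thinning does not remove this. A segment could enter through APC-KI alone: 9 members had 0 counts in all APC-WT libraries and 0 members in all APC-KI libraries. Both comparisons therefore favour APC-KI by the rule. APC-KI replicate 2 had counts for all 99 members. In all, 68 members were seen in every library, and 50 never reached 1% of Igkv counts in any library.

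Few segments had shares that separated the groups. Of the 99 members 8 had a higher share in every APC-KI library (8.08%) and 6 a lower one (6.06%). The corresponding figures for Ighv segments were 6.67% and 8.57%. Of the 8 higher, 5 had 0 counts in all APC-WT libraries and at most 0.0530% in APC-KI, where a count of 0 in APC-WT allows a share of up to 0.0347% in the smallest profile. The other 3 were Igkv9-123, Igkv4-90 (0.0690%, 0.0412% and 0.0116% against 0.105%, 0.193% and 0.719%) and Igkv5-45. In APC-WT, Igkv9-123 had at most 1 count in a library and Igkv5-45 at most 2. Their lowest APC-KI shares, 0.00905% and 0.0164%, were below the share that 3 counts make in every APC-WT library (0.0177% or more). The 6 lower were Igkv10-94, Igkv6-25, Igkv8-24, Igkv4-53, Igkv13-85 and Igkv4-92. Igkv10-94 was at 2.51%, 2.85% and 1.11% in APC-WT and at 1.09%, 0.994% and 0.733% in APC-KI, so that the nearest libraries of the groups lay side by side. These segments were chosen after their values were seen, and no test was made of them.

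Families, numbered in the symbol before the hyphen, group segments by sequence. The 99 members fall into 19 families. Igkv1, with 9 members, held 42.9%, 37.6% and 34.5% in APC-WT and 38.5%, 32.5% and 35.0% in APC-KI, the largest family share in each library. Igkv4, with 27 members, held 13.4 ± 2.23% and 15.7 ± 1.13%. Igkv3, with 10 members, was lower in every APC-KI library, at 3.53%, 3.44% and 8.39% against 2.22%, 2.47% and 3.14%. The high APC-WT value was replicate 3, where Igkv3-10 alone held 3.85%. Of the 19 families only Igkv3 and Igkv7 did not overlap between the groups. Igkv7 is 1 segment, Igkv7-33, with 0 counts in all APC-WT libraries and 10, 50 and 28 counts in the APC-KI libraries, at most 0.0362% in any library. In the shallower APC-WT profiles 3 counts are a share of 0.0177% to 0.0347%, so this separation lies near what they can show. Igkv9 varied most by 1 library, at 12.5% in APC-KI replicate 1 and 0.666% to 4.08% elsewhere.

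The kappa locus is unusual in that segments lie on both strands. Segments in the orientation of Igkc join by deletion of the DNA between, and those in the opposite orientation by inversion. The annotation puts 37 members in the orientation of Igkc and 62 in the other. The 37 held 53.5%, 53.5% and 56.7% of Igkv counts in APC-WT and 48.9%, 46.0% and 46.3% in APC-KI, without overlap. Without Igkv1-117 and Igkv1-110, both in the orientation of Igkc, the shares were 38.4%, 28.1% and 35.1% against 20.8%, 21.7% and 20.9% of the remaining counts. Igkv1-135 made the largest difference among the 35, with a mean share of 4.99% in APC-WT and 0.905% in APC-KI. With it left out too, the shares were 25.9%, 26.8% and 34.1% against 20.2%, 21.1% and 18.8%, and the groups still did not overlap. By place in the locus, the 33 members farthest from Igkc held 58.2 ± 1.70% in APC-WT and 60.2 ± 7.39% in APC-KI, which overlapped. Family, orientation and place were examined after the shares had been seen and are given as descriptions without a test.

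**Figure D5:**
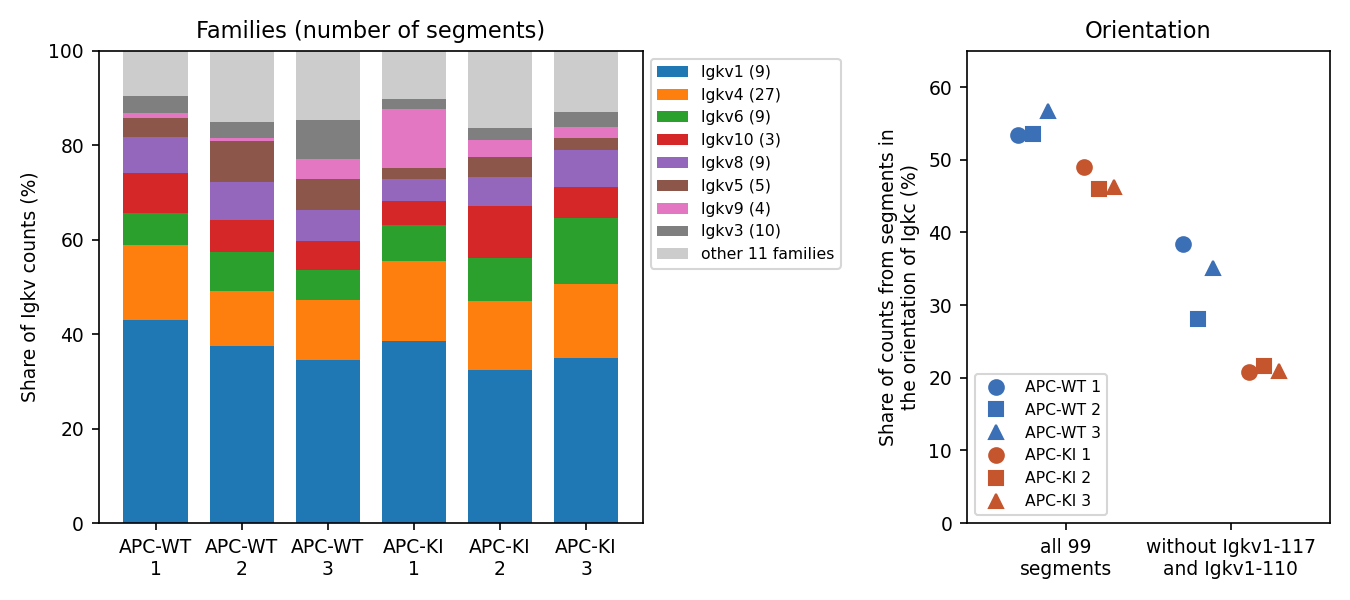
Left, share of Igkv counts (%) by family in each library for the 8 families with the largest mean share; right, share of counts (%) from segments in the orientation of Igkc, over all 99 members and without the 2 leading segments, with 1 point per library. Igkv1 is the largest family throughout, and on the right the APC-WT points lie above the APC-KI points in both sets.

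Distances between usage profiles within a group overlapped those between groups. The Bray-Curtis distance of shares, 0 for equal profiles and 1 for profiles with nothing in common, ran from 0.288 to 0.462 between APC-WT libraries, from 0.352 to 0.367 between APC-KI libraries and from 0.255 to 0.469 between the groups. The closest pair of all was APC-WT replicate 3 with APC-KI replicate 2. The rank correlation of shares across segments (Spearman, a description over 99 segments that share each library's depth) was between 0.663 and 0.797 for all 15 pairs of libraries. Pairs share libraries, so no test was made. The heavy chain leaders also differed by tumour: Ighv1-81 led 4 libraries, Ighv5-9-1 led APC-WT replicate 1 with 27.8% and Ighv1-12 led APC-KI replicate 3 with 17.9%.

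Most of the genes listed for plasma cell identity and antibody secretion were higher in APC-KI, as the segments were. Of 13 plasma cell markers tested 10 were higher and 1 lower, with a median log2 change of 1.87, and 9 of the 11 kept their calls with each library left out in turn. Pou2af1, the coactivator that works with octamer-binding factors at immunoglobulin promoters, was at 3.63, 4.61 and 3.63 CPM in APC-WT against 33.2, 45.8 and 23.5 CPM in APC-KI (log2 change 3.11 ± 0.27, adjusted p = 0.00337). Irf4, a transcription factor needed for plasma cells, rose by 2.52, and Mzb1, an endoplasmic reticulum protein of antibody-secreting cells, by 3.40 on the log2 scale. Xbp1, which drives the secretory programme and is also expressed by gut epithelium, rose by 0.83. Tent5c, which extends the poly(A) tails of immunoglobulin mRNA, fell by 0.87 and lay below in every APC-KI library, at 85.6, 71.1 and 102 CPM against 50.3, 50.4 and 40.6 CPM. Sdc1 and Eaf2, also plasma cell markers of the list, were not called (edgeR adjusted p = 0.708 and 0.157). Sdc1 was at 476, 445 and 669 CPM in APC-WT against 480, 489 and 526 CPM in APC-KI. The summed plasma cell list, which includes Sdc1, ran from 1037 to 1223 CPM in APC-WT and from 1866 to 3073 CPM in APC-KI. The part of this list in the Igkv difference was not tested.

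Genes that act at the kappa locus before or during rearrangement were in part near 0. Rag1 and Rag2, the recombinase that cuts the segments, were at or near 0 CPM in all libraries, at most 0.0574 CPM for Rag1 and 0.0576 CPM for Rag2, and were not tested. Of 5 rearrangement and hypermutation genes tested, 1 was higher (Dntt, which adds bases at junctions) and 1 lower, and neither call held with each library left out in turn. Dntt missed the threshold without any library but APC-KI replicate 3 (highest adjusted p 0.130). Of 16 genes of the kappa transcription list 5 were higher (Pou2af1, Irf4, Pou2f2, Ebf1 and Mef2c). Pou2af1 and Irf4 kept the call with each library left out in turn, whereas Pou2f2 lost it without any library but the replicates numbered 3, Ebf1 without any but APC-WT replicate 3, and Mef2c without any one of the 6 (highest adjusted p 0.144, 0.115 and 0.140). From the same list 1 gene was lower: Tcf3, which encodes the E2A proteins, was at 184, 170 and 198 CPM against 98.5, 94.0 and 120 CPM. Of 2 genes tested from the surrogate light chain list 1 was called: Vpreb3 rose by 3.21 on the log2 scale. Vpreb1 was not called (log2 change 0.126, edgeR adjusted p = 0.882). Vpreb2 and Igll1, also on that list, had at most 1 and 2 counts in any library and were not tested. In the assembly and secretion list 8 of 13 were higher and 1 (Tent5c) lower, and 5 of these 9 kept their calls with each library left out in turn.

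Markers of other cells differed between the groups and between libraries. Epithelial cells, from which these tumours arise, made up part of every library: the 7 epithelial genes summed to 7483 to 8680 CPM in APC-WT and to 9531 to 11359 CPM in APC-KI, and Epcam was at 1261 to 1432 CPM against 1569 to 1829 CPM (adjusted p = 0.0614). Of 13 B cell markers 2 passed (Cd79a and Cd79b, signalling chains of the B cell receptor), with a median log2 change of 3.00; Cd79b missed the threshold without APC-WT replicate 1 (0.083) or 2 (0.0996) or APC-KI replicate 1 (0.056). The summed B cell list ran from 285 to 414 CPM against 568 to 1339 CPM. Cd74 alone made up most of this sum in every library, with a range of 277 to 399 CPM against 544 to 1209 CPM. It was not called (edgeR adjusted p = 0.0555). Every other gene of the list stayed at or below 25.7 CPM, the value of Cd79a in APC-KI replicate 2. The sum therefore mainly follows Cd74 and says little about the other B cell markers. APC-KI replicate 2 stood apart: Ms4a1, which encodes CD20, was at 10.8 CPM there, against 0.135 to 1.35 CPM in the other 5 libraries. Ighm, the IgM heavy chain, was at 132 CPM in that library and at 18.6 and 22.1 CPM in the other APC-KI libraries. It is the library with the most Igkv counts, all 99 members detected and the highest value for 40 of the 76 tested members; without it the median log2 change of the tested members was 2.72, against 3.26 with it. APC-KI replicate 3, where Igkv6-23 was high, differed in heavy chain class: IgG genes were 28.6% of the Igha and Ighg counts, against 1.76% to 10.5% in the other libraries. Igha itself was at 577, 711 and 453 CPM in APC-WT against 5490, 8005 and 2850 CPM in APC-KI. All 6 smooth muscle genes (summed 126 to 381 CPM against 838 to 1420 CPM) and 6 of 8 T cell genes (21.3 to 29 against 42.8 to 67.9 CPM) were higher, as were 4 of 7 epithelial genes (Krt8, Krt19, Krt20 and Vil1). With each library left out in turn, 1 of the 6 smooth muscle calls (Myh11), 0 of the 6 T cell calls and 0 of the 4 epithelial calls held every time. Of 5 lymphoid follicle stroma genes tested 2 were higher, both chemokines that guide lymphocytes: Ccl21a (log2 change 2.21) and Ccl19 (4.19, at 0 to 0.053 CPM against 0.302 to 1.03 CPM). Both missed the threshold without APC-WT replicate 2 or APC-KI replicate 2, and Ccl19 also without APC-KI replicate 1 (highest adjusted p 0.064 and 0.067). That list summed to 17.4 to 19.1 CPM against 38.4 to 88.3 CPM, and 4 of the 5 genes did not overlap between the groups. Of 7 macrophage genes 2 were higher, Cd14 (0.91) and Itgam (1.20), and the list summed to 361 to 465 CPM against 504 to 714 CPM. Itgam missed the threshold without APC-WT replicate 2 or APC-KI replicate 1 or 2 (highest adjusted p 0.084). Of 7 germinal centre genes tested 1 was higher, Fas (1.23), and the list summed to 410 to 539 CPM against 499 to 544 CPM. The part of these cells in the Igkv difference was not tested.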

How the data were processed

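Per the labels' protocols, DNase-treated total RNA was sequenced from TruSeq Stranded mRNA libraries, which select polyadenylated RNA. The submitters' processing notes name STAR, cutadapt 2.5, Trim Galore 0.6.4, DESeq2 1.37.6 and the builds GRCm38 and mm10; which counter, strand setting and annotation release made the table is not given in the sources used here. Its deposited values were raw counts per Ensembl gene. Names, lengths, orientation and sequences came from GENCODE M21, which named 52093 identifiers and left 1607 unnamed; only 35 identifier versions equalled it, so another release lay behind the counts, and the coordinates given are those of M21.

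Genes were kept by filterByExpr, scaled by TMM and tested with edgeR 4.0.16 (robust quasi-likelihood, group alone) in R 4.3.3, with Benjamini-Hochberg adjustment over 19127 genes and a threshold of 0.05. DESeq2 1.42.0 and limma-voom (limma 3.58.1), other scalings and filters, a replicate block and left-out libraries were alternatives. Shares are of the summed member counts. Thinning used 100 seeded draws (seed 7). For single measures, two-sided exact permutation tests were run in scipy. Scripts were tested on simulated data. Replicates differed far beyond counting noise (chi-square per gene 40.3 to 115). Named were the first 3 segments of each library, the 10 largest mean shares of each group, the 8 smallest adjusted p, the 5 largest ratios of the highest library to the others, the members at the edge of the rule, and list genes with the smallest p; a few of these are given by count. Members, lists and the rule were chosen with earlier results of these data known. A few genes of the lists are not reported here.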

Additional observations from a re-analysis of the deposited data

How the results depend on the processing

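Under every alternative 0 segments were called lower and the median log2 change of the members was positive (2.72 to 4.20), and over the 76 tested members 5 of 1202 repeated log2 changes were negative (4 for Igkv3-10, 1 for Igkv4-61), while the number called higher varied. It stayed between 40 and 43 with RLE or upper-quartile factors, library totals, library sizes without immunoglobulin genes and a stricter filter, was 31 with limma-voom and 59 with DESeq2 (of 90 with an adjusted p), and was 21 with no filter, where 99 members were tested. It ran from 17 to 45 with single libraries left out and was 3 with only the libraries without Y-linked counts, where the lone APC-WT library is assumed to vary like the others; there Igkc had a log2 change of 3.63 (adjusted p = 0.0676). Same-numbered libraries did not deviate together (r 0.035, −0.068 and −0.182, against −0.145 to 0.198 for differently numbered ones). These values gave no sign of pairing by number, but so few libraries cannot exclude it. With the replicate block 28 segments were called higher, 21 of them shared with the 42. With single libraries left out, the APC-KI minus APC-WT difference ran from −3.30 to 0.959 for the effective number of segments and from −0.00227 to 0.0960 for Igkv counts per Igkc count. Without the top segment of each library the mean Bray-Curtis distance between groups minus that within groups was −0.0292, against 0.00814 with all; the cause was not tested. Dividing counts by exon length, added after the data were seen, changed no sign. Of 364 repeats over 23 named segments 0 changed sign, 61 lost the call and 10 gained it. The 8646 Igkv counts of the smallest profile limit what can be said of shares under 0.0347%.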
